A study of Nicotiana tabacum with 3 samples.

Results

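The genes described here are those of the tobacco plastid genome, measured by RNA-seq in two-celled proembryos. They were chosen by position alone, as every row whose locus lies on the plastid genome. This gave 79 rows of the 49454 listed in at least 1 library, with the 2 copies of a gene in the inverted repeat kept as separate rows. The samples are 3 libraries of 1 condition, wild-type Nicotiana tabacum SR1 at 4 days after pollination. Each was made from 40 to 50 isolated proembryos, so the apical and the basal cell were measured together, and their separate levels are not known. RNA was captured by its poly(A) tail and amplified with a kit for very low input. No second condition was measured, so no groups were compared and no test was run across genes; an exact sign-flip test over 3 libraries could not go below p = 0.25. The embryo identity of the samples was not checked against marker genes here.

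The plastid is an organelle that takes the form of the chloroplast in green cells and of the proplastid or storage plastid in others. Its genome encodes part of the photosystems, the cytochrome b6f complex, the ATP synthase, the NDH complex of cyclic electron flow and the large subunit of Rubisco. It also encodes its own RNA polymerase, ribosomal proteins, rRNAs and tRNAs. The remaining subunits are encoded in the nucleus. In leaf plastids most photosynthesis genes are transcribed by the plastid-encoded polymerase, while a nuclear-encoded polymerase transcribes accD and the rpoB unit. Plastid mRNAs mostly lack the stable poly(A) tail of nuclear mRNAs, and these libraries were captured by that tail; its part in the values was not tested.

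FPKM is a fragment number scaled by transcript length and by the mapped reads of the library. It is meant for comparing genes of different length, but short plastid genes were often not listed, as described below. A gene is called listed when its FPKM is above 0, and it is set to 0 FPKM in a library that does not list it. Of 144 plastid genes that RefSeq annotates, library 1 listed 68, library 2 also 68 and library 3 77, with 64 shared by all of them. Of all 49454 rows, libraries 1, 2 and 3 listed 44553, 44302 and 46255, so library 3 listed the most there too. Rows listed in all 3 libraries were 81.0% of the 79 plastid rows, against 82.8% of all rows. Plastid rows summed to 418 FPKM in library 1, 453 FPKM in library 2 and 575 FPKM in library 3. These sums are 0.0498%, 0.0564% and 0.0757% of the library's total FPKM, a mean of 0.0606% ± 0.0134 (SD, n = 3). The median of the mean levels was 2.41 FPKM for the 79 plastid rows, against 0.662 FPKM for the 145 mitochondrial rows and 2.82 FPKM for all 49454 rows. A mean of at least 1 FPKM was reached by 49 of 79 plastid rows (62.0%), 58 of 145 mitochondrial rows and 32585 of all rows (65.9%). A listed plastid gene was therefore at a level usual for a listed gene, while all of them together were a small part of each library. The number of plastids per embryo, the RNA per plastid and the capture by the poly(A) tail cannot be told apart in such sums. Nothing is known of the number of reads per library, so no counting interval is given. From the low values of all genes, the depth relative to library 1 was 1.14 for library 2 and 0.912 for library 3.

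**Figure D1:**
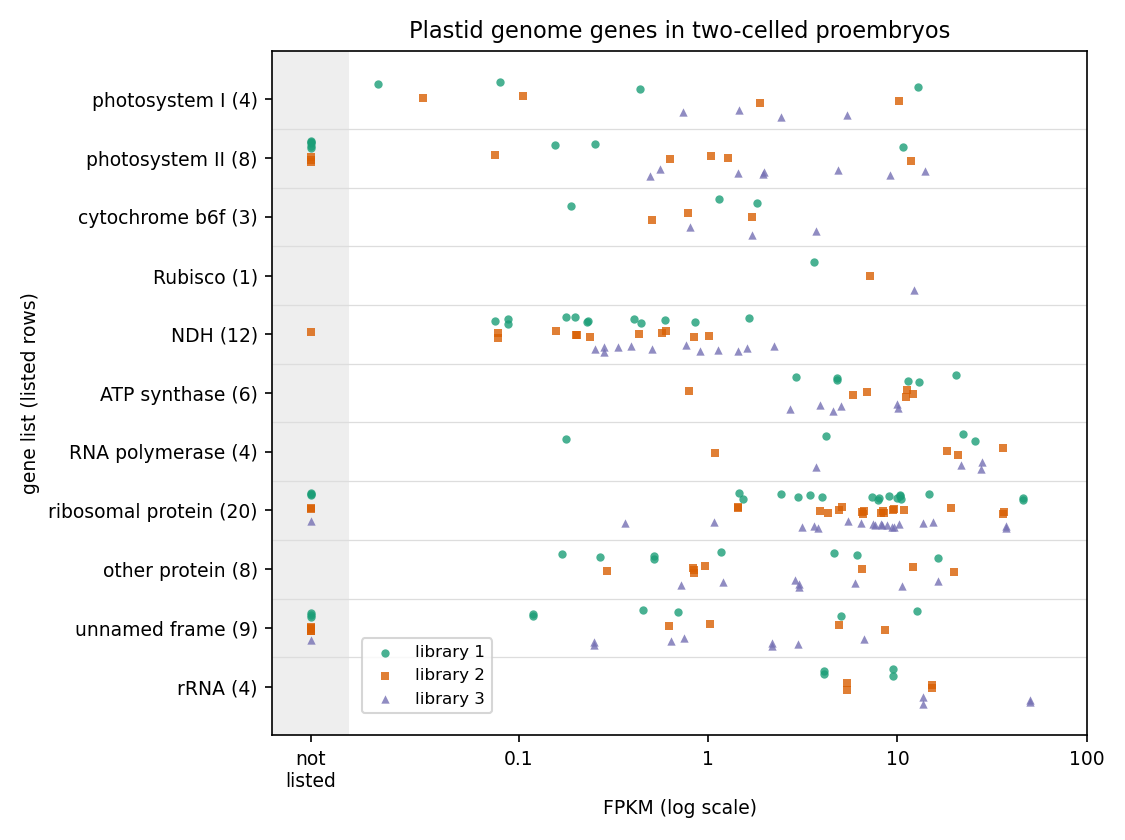
FPKM (log scale) of each listed plastid row, by gene list and library, with rows that a library does not list in the grey band. Each point is 1 row in 1 library; the photosystem lists spread from under 0.1 to over 10 FPKM while most ribosomal protein rows lie between 1 and 20 FPKM in all 3 libraries.

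The plastid gene expression machinery held the largest part of the plastid signal. The 24 listed rows of ribosomal proteins and RNA polymerase summed to 248, 265 and 279 FPKM in libraries 1, 2 and 3. The 16 listed rows of the photosystems, cytochrome b6f and Rubisco summed to 31.3, 37.1 and 62.7 FPKM. The ratio of these sums was 7.93 in library 1, 7.13 in the second and 4.45 in library 3. The ratio depended on which rows were set against the machinery. With the 6 ATP synthase rows counted in, a choice made after the values were seen, it was 2.81, 3.11 and 2.82, with no fall in library 3, and with the NDH rows as well it was 2.66, 2.95 and 2.56. A mean of at least 1 FPKM was reached by 21 of the 24 machinery rows and by 8 of the 16 rows of the photosystems, cytochrome b6f and Rubisco. The lists differ in size, so their medians were also set side by side. The machinery median was 7.62, 7.43 and 8.28 FPKM, and that of the 16 rows was 0.173, 0.707 and 1.95 FPKM in libraries 1, 2 and 3. The machinery was higher than the 16 rows in every library by either measure.

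All 4 subunit genes of the plastid-encoded RNA polymerase were listed in every library. The genes rpoC2 and rpoA, for the β″ and α subunits, were among the highest plastid genes. rpoC2 (positions 17170 to 21336 of the plastid genome of Ntab-TN90) had 22.3, 36.3 and 28.1 FPKM in libraries 1, 2 and 3, which averages 28.9 ± 7.03 (SD, n = 3). rpoA, which lies in a locus that the tables share among 19 listed genes (positions 72224 to 100855), had 25.6, 20.9 and 27.8 FPKM, a mean of 24.8 ± 3.50 (SD, n = 3). Their ranges overlap, so the order of these 2 genes was not stable between libraries. rpoC1, for the β′ subunit (positions 21495 to 24298), had 4.22, 18.3 and 21.8 FPKM. rpoB, for the catalytic β subunit (positions 24304 to 27516), was the lowest, at 0.178, 1.09 and 3.73 FPKM. It was below the other polymerase genes in all 3 libraries and varied 21.0-fold between them.

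Of 21 ribosomal protein genes named in the annotation, 17 were listed, as 20 rows with the repeat copies. They made up 46.9%, 41.5% and 34.4% of the plastid sum in libraries 1, 2 and 3. The sum of this list varied less between libraries than that of any other list of more than 1 listed gene, at 196, 188 and 198 FPKM. rpl2, for a protein of the large ribosomal subunit, was the highest plastid gene by mean. Its first copy had 46.2, 36.6 and 37.5 FPKM, a mean of 40.1 ± 5.31 (SD, n = 3), and its second copy (positions 154397 to 155887) had 46.0, 36.3 and 37.6 FPKM. By single rows rpl2 was the highest in libraries 1 and 2, though rpoC2 was nearly level with it in library 2. The rRNA gene NitaCr106 was above rpl2 in library 3. Summed over both copies, rpl2 had 72.9 FPKM in library 2, against 36.3 FPKM for rpoC2. In library 3 the summed rRNA pair had 101 FPKM, against 75.1 FPKM for rpl2. rps4, an early-assembling protein of the small subunit (positions 47543 to 48148), followed in this list at 14.7, 19.3 and 15.5 FPKM. rpl14 had a mean of 9.06 ± 1.45 FPKM and rps3 of 8.20 ± 0.780 FPKM (SD, n = 3). rpl16 had 9.04, 10.8 and 10.2 FPKM and the second copy of rps7 had 10.4, 8.48 and 9.58 FPKM, and these neighbours in the order overlap in their ranges. Lower in this list were rps19, rpl22, rps2, rps18 and rps12, with means between 2.99 and 6.34 FPKM, and the single rows of rpl23. The second copy of rpl23 had 7.92, 6.57 and 3.82 FPKM. This order is by single rows, and summed over both copies rps7 had a mean of 18.7 FPKM and rpl23 of 12.2 FPKM. rps16 was listed in library 2 alone, at 1.44 FPKM, and rpl33 and rpl20 in library 3 alone, at 1.08 and 0.366 FPKM. rps14, rps15, rpl32 and rpl36 were not listed in any library.

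The photosystem genes were low and uneven. Photosystem I captures light to reduce ferredoxin, and photosystem II splits water. psbA, for the D1 reaction centre protein of photosystem II and one of the most abundant mRNAs of leaf chloroplasts, was absent from the list of library 1 and reached 0.0748 FPKM in the second library and 0.555 FPKM in the third (positions 536 to 1597). It ranked 73 of the 79 plastid rows by mean. psaA, for a reaction centre protein of photosystem I (positions 41239 to 43491), had 0.0180, 0.0311 and 0.739 FPKM in libraries 1, 2 and 3. Its partner psaB (positions 39009 to 41213) had 0.0793, 0.105 and 1.45 FPKM. For both, library 3 was far above the others, 41.1-fold above library 1 for psaA and 18.3-fold for psaB. These ratios rest on very low values in library 1, and the number of fragments behind them is not known.

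psbD and psbC, for the D2 protein and the inner antenna protein CP43 of photosystem II, overlap and share a locus (positions 34475 to 36905). psbD had 0.253, 1.28 and 1.97 FPKM, and psbC had 0.156, 0.631 and 1.44 FPKM in libraries 1, 2 and 3. psbD was above psbC in every library, and both were lowest in library 1. psbB, for the other inner antenna protein CP47, stood apart from the rest of its list. It had 10.7, 11.7 and 9.09 FPKM, a mean of 10.5 ± 1.33 (SD, n = 3), and was above psbC, psbD and psbA in every library. It lies in the locus shared among 19 genes. The short subunits psbI, psbZ and psbH were listed in library 3 alone, at 13.9, 1.94 and 0.497 FPKM, and psbK in libraries 2 and 3, at 1.04 and 4.86 FPKM. The short genes psbE, psbF, psbJ, psbL, psbM, psbN and psbT of the photosystem II list were not listed in any library. The same held for psaC, psaI and psaJ of the photosystem I list.

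ycf3, which encodes an assembly factor of photosystem I and no subunit of it, was the highest of the photosystem I list. It had 12.9, 10.2 and 5.40 FPKM, lowest in library 3 (locus at positions 44244 to 46477, shared with the frame NitaCp023). NitaCp023, which the gene table leaves without a name, had 12.7, 4.91 and 6.67 FPKM. ycf4, another assembly factor of photosystem I, had 0.440, 1.88 and 2.43 FPKM, lowest in library 1. Without ycf3 and ycf4, the 10 listed photosystem subunit rows summed to 11.2, 14.9 and 36.5 FPKM in libraries 1, 2 and 3. Without psbB as well, a choice made after its values were seen, the other 9 summed to 0.506, 3.16 and 27.4 FPKM. In library 3, psbI alone gave 13.9 FPKM of this last sum.

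The cytochrome b6f complex links the photosystems, and 3 of its 6 plastid genes were listed. petB, for cytochrome b6, had 1.81, 1.70 and 3.73 FPKM in libraries 1, 2 and 3. petA, for cytochrome f (positions 64340 to 65302), had 1.14, 0.782 and 0.808 FPKM, a mean of 0.910 ± 0.200 (SD, n = 3). Of the photosystem, cytochrome b6f and Rubisco rows, petA and ycf3 were those highest in library 1. petD, for subunit IV, had 0.189, 0.506 and 1.70 FPKM. The small subunits petG, petL and petN were not listed.

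rbcL, for the large subunit of the carbon-fixing enzyme Rubisco (positions 57600 to 59033), had 3.64, 7.17 and 12.2 FPKM in libraries 1, 2 and 3. Its mean of 7.67 ± 4.29 FPKM (SD, n = 3) placed it 25 of the 79 plastid rows. It was above psbA, psbC, psbD, psaA and psaB in every library, but not above all photosystem genes. psbB (10.7 and 11.7 FPKM) and ycf3 (12.9 and 10.2 FPKM) were above rbcL in libraries 1 and 2. In library 3 psbI was above rbcL, at 13.9 FPKM. The pattern of rbcL over the libraries was closest to that of ndhG, accD and ndhJ. This is by the distance of log2(FPKM + 0.1) centred per gene, which rests on 3 points. By the same measure psbA was closest to petD and to both copies of ycf2, and rpl2 to its own second copy, petA and rps7.

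The NDH complex passes electrons from ferredoxin back to plastoquinone. All 11 of its plastid genes were listed, as 12 rows, and this was the lowest of the larger lists. The median of the means was 0.480 FPKM, with sums of 5.03, 4.42 and 10.1 FPKM in libraries 1, 2 and 3. Only ndhC and ndhA had a mean of at least 1 FPKM. ndhC was listed in libraries 1 and 3, at 1.65 and 2.24 FPKM. ndhA (positions 121696 to 123935) had 0.853, 0.838 and 1.43 FPKM. The lowest single rows were the 2 copies of ndhB, the first with 0.0877, 0.0780 and 0.282 FPKM. Summed over both copies, ndhB had a mean of 0.298 FPKM, above ndhE, ndhK and ndhG at 0.229, 0.242 and 0.260 FPKM. ndhF, at 0.409, 0.573 and 0.335 FPKM, was the single NDH gene not highest in library 3. The other NDH genes had means between 0.229 FPKM (ndhE) and 0.875 FPKM (ndhD).

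The ATP synthase genes had the highest summed level of the thylakoid complexes in every library, and their sum was lowest in library 3. All 6 were listed in all 3 libraries with a mean of at least 1 FPKM, and the sums were 57.1, 48.1 and 36.2 FPKM in libraries 1, 2 and 3. atpA, for the α subunit of the catalytic head (positions 10630 to 12153), had 20.3, 11.3 and 9.94 FPKM. atpB and atpE, for the β and ε subunits, share a locus (positions 54888 to 56782), and atpB had 12.9, 11.2 and 4.54 FPKM while atpE had 11.3, 5.86 and 2.72 FPKM. These 3 genes were highest in library 1 and lowest in library 3, an order that the other 3 did not share. The membrane subunit gene atpI had 4.78, 12.1 and 10.1 FPKM, and atpH, for the rotating c subunit, had 4.77, 6.91 and 5.03 FPKM. atpF, the lowest of the list, had 2.92, 0.792 and 3.92 FPKM.

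Genes of other functions spread over the whole range of plastid levels. ycf1, which encodes a component of the protein import apparatus (positions 125891 to 131599), had 16.4, 19.9 and 10.5 FPKM in libraries 1, 2 and 3. accD, for a subunit of the acetyl-CoA carboxylase that starts fatty acid synthesis (positions 59798 to 61336), had 4.61, 12.1 and 16.3 FPKM. clpP, for the proteolytic subunit of the Clp protease, was the steadiest plastid gene listed in all libraries, at 6.13, 6.47 and 5.96 FPKM. matK, the intron maturase (within a locus at positions 1812 to 4409), had 1.18, 0.964 and 2.89 FPKM. cemA, of the envelope membrane, had 0.168, 0.834 and 1.21 FPKM, and ccsA, needed for attaching haem to cytochromes, had 0.269, 0.291 and 0.717 FPKM. ycf2, the longest gene at 6843 bp, had only 0.518, 0.845 and 3.03 FPKM in its second copy. The genes accD, rpoB, rpoC1 and rpoC2, which the nuclear-encoded polymerase alone transcribes in leaf plastids, summed to 31.3, 67.7 and 69.9 FPKM.

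**Figure D2:**
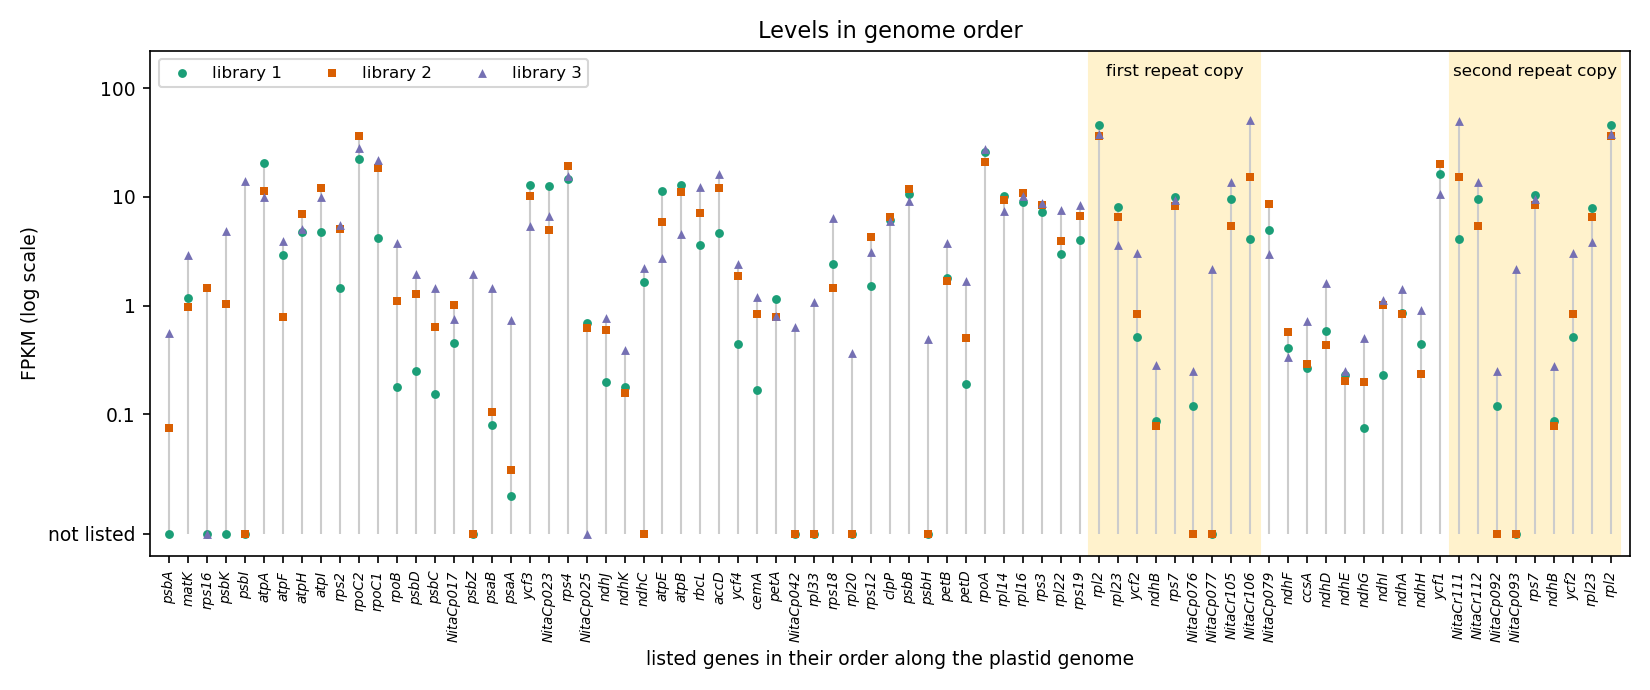
FPKM (log scale) of 77 listed plastid rows in their order along the genome, 1 marker per library, with the rows of the 2 inverted repeat copies shaded. The copies mirror each other. Genes of the same transcription unit, such as rpoC2 and rpoB or psbB and petD, can lie far apart in level.

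Neighbouring genes were alike in some transcription units and far apart in others. Across the 78 pairs of adjacent listed rows, Spearman's rho of the mean levels was 0.295 with a Pearson's r of 0.341 on log2(FPKM + 0.1); adjacent rows can share transcripts, and the repeat appears as 2 copies. In the rpoB unit, which is transcribed from rpoB through rpoC1 to rpoC2, the level was higher at each step along the unit in every library. rpoC2 was 126-fold above rpoB in library 1, 33.2-fold in library 2 and 7.53-fold in library 3. In the unit from psbB through psbH and petB to petD, the first gene was the highest and petD stood at 0.0177, 0.0431 and 0.187 times its level, but psbH was below petB and petD in every library. In the unit from rpl23 to rpoA, 10 listed genes spanned 15.4-fold, 9.39-fold and 10.3-fold within a library, with rpl2 highest each time. Only 1 copy of rpl2 and 1 of rpl23 entered these values. In the unit of rps2, atpI, atpH, atpF and atpA, the last gene atpA was 13.9-fold, 2.20-fold and 1.82-fold above rps2. Levels were closer in the overlapping pairs, where the higher of psbD and psbC was 1.62, 2.03 and 1.37 times the lower, and the higher of atpB and atpE 1.14, 1.90 and 1.67 times the lower. In the pair of psaA and psaB, psaB was 4.41, 3.38 and 1.97 times psaA. In the ndhC unit, ndhJ was at 0.120 times the level of ndhC in library 1 and 0.342 times in library 3.

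The rows of the inverted repeat came in 9 pairs with both copies listed. Within a pair the values differed by at most 5.17% of their mean, in rpl23, and were equal in every library for 3 pairs, NitaCp076 with NitaCp092, NitaCp077 with NitaCp093 and the rRNA genes NitaCr105 with NitaCr112. The copies hold the same sequence, so reads cannot be told apart between them and each row is a share of a joint level. Summed over both copies, rpl2 reached 92.2, 72.9 and 75.1 FPKM in libraries 1, 2 and 3. The frame NitaCp079 begins where the mirror image of the end of ycf1 lies. Its mean was 5.52 ± 2.82 FPKM (SD, n = 3), and it stood at 0.306, 0.431 and 0.285 times the level of ycf1 in libraries 1, 2 and 3, with the same order of libraries. Reads of the mirrored stretch can be divided between these 2 rows, so their shared order is not an independent observation. Of the other unnamed frames, NitaCp017 had 0.454, 1.02 and 0.749 FPKM. Regions were set by gene pairs, and a gene without a partner of equal length was counted as single-copy. The large single-copy region held 56.5%, 60.7% and 54.6% of the plastid sum in libraries 1, 2 and 3. The small single-copy region, with most of the NDH genes, held 5.86%, 7.11% and 3.55%. These last shares count all of ycf1 and NitaCp079, although the end of ycf1 and its mirror image belong to the repeat.

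Of the 8 annotated rRNA genes, the 4 long ones were listed and the 4 of 103 or 121 bp were not. The pair NitaCr106 and NitaCr111, of 2810 bp, varied most among the 10 highest rows. NitaCr106 (positions 106331 to 109140) had 4.08, 15.2 and 50.3 FPKM in libraries 1, 2 and 3, a 12.3-fold range. NitaCr105 (positions 102762 to 104252) had 9.50, 5.41 and 13.6 FPKM. The rRNA rows summed to 27.2, 41.3 and 128 FPKM, highest in library 3, where they were 22.2% of the plastid sum. Without them the plastid sums were 391, 412 and 448 FPKM, and the highest library was 1.15 times the lowest, against 1.38 times with them. None of the 37 tRNA genes was listed.

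Length separated the protein-coding genes that were listed from those that were not. With rps12 left out, since the gene table holds 1 of its exons, 57 of 57 genes of at least 320 bp were listed in at least 1 library, but 17 of 39 shorter ones. The limit of 320 bp was set after the values were seen. Unlisted genes were between 90 and 303 bp long, with a median of 133.5 bp, and listed ones had a median of 744 bp. The shortest listed gene was psbI, at 156 bp. In the mitochondrial genome, 125 of 134 genes of at least 320 bp were listed and 16 of 22 shorter ones. The gene lengths are spans on the genome and include introns. Because the missing photosystem and cytochrome b6f genes are all among the short ones, their absence and their length cannot be told apart.

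**Figure D3:**
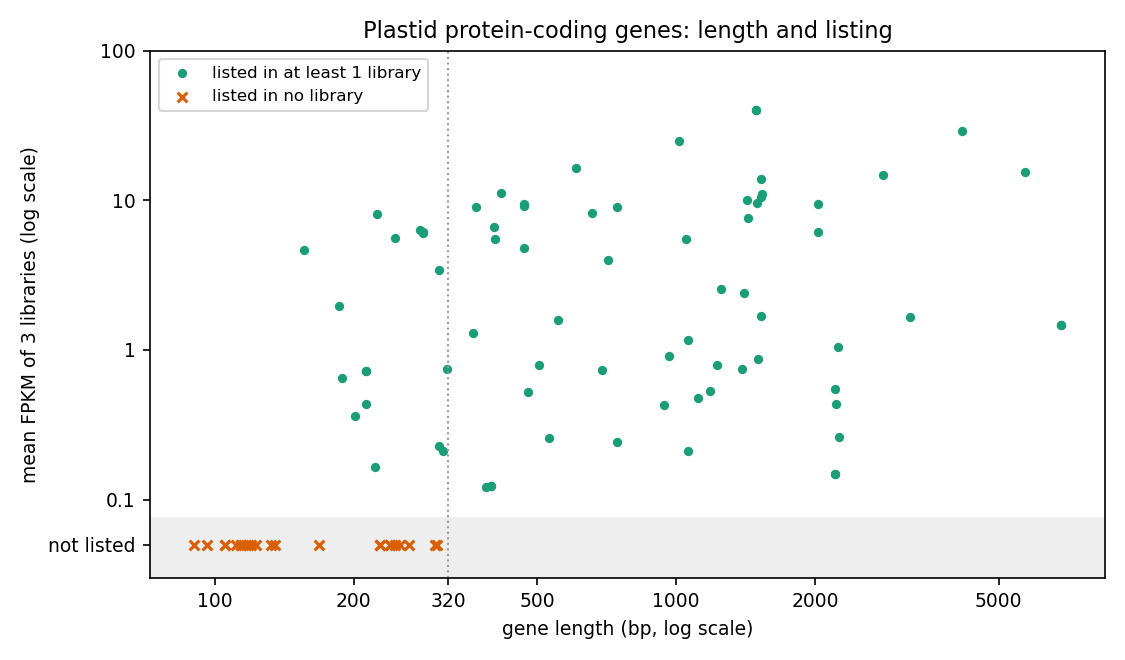
Mean FPKM of the 3 libraries against gene length, both on log scales, for plastid protein-coding genes without rps12; crosses in the grey band are genes listed in no library. The dotted line marks 320 bp, and no gene to its right is missing.

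Some very low plastid values stood near whole multiples of each other once the libraries were scaled by their relative depth, which was itself set from the ratios of genes under 0.3 FPKM. ndhE had 0.231, 0.204 and 0.252 FPKM in libraries 1, 2 and 3, which are 1.01, 1.01 and 1 times the smallest after scaling. The values of ndhK stood at 1.00, 1 and 2.00, those of ndhG at 1, 3.01 and 6.11 and those of the first ndhB copy at 1, 1.01 and 2.93. For psbA the value of library 3 was 5.96 times that of library 2. Others did not, such as ndhF at 1.34, 2.13 and 1, ndhJ at 1, 3.46 and 3.54 and ccsA at 1, 1.23 and 2.44. These genes were picked after their values were seen. The number of fragments behind 1 such step is not known, so no interval is given for these genes.

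Library 3 had the higher plastid levels, and the lists differed in how far. The comparison of library 3 with library 1 was chosen after the values were seen. Of the 67 plastid rows listed in both, 35 (52.2%) were at least 2-fold higher in library 3, against 22.6% of all genes listed in both. In the other direction 6 rows (8.96%) were at least 2-fold higher in library 1, against 8.38% of all genes. With 1 copy of each repeat pair the shares were 52.5% and 8.47%. Mitochondrial genes gave 49.5% and 3.60%, so the plastid genes were not alone in this. The median ratio of library 3 to library 1 was 2.06 for plastid genes, 1.84 for mitochondrial genes and 1.12 for all genes. By list it was 11.9 for photosystem I (4 rows), 7.77 for photosystem II (3 rows), 6.87 for rRNA (4 rows), 3.35 for rbcL, 3.21 for RNA polymerase (4 rows), 3.10 for other proteins (8 rows), 2.45 for NDH (12 rows), 2.06 for cytochrome b6f (3 rows) and 1.65 for unnamed frames (5 rows). The photosystem lists each held a gene lower in library 3, ycf3 at 0.419 times and psbB at 0.849 times its level in library 1. The ratios of psaA and psaB rest on only 0.0180 and 0.0793 FPKM in library 1. The median ratio was 1.13 for ribosomal proteins (17 rows) and 0.772 for the ATP synthase (6 rows). The libraries are replicates of 1 condition, and the part of library preparation in these gaps was not tested.

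**Figure D4:**
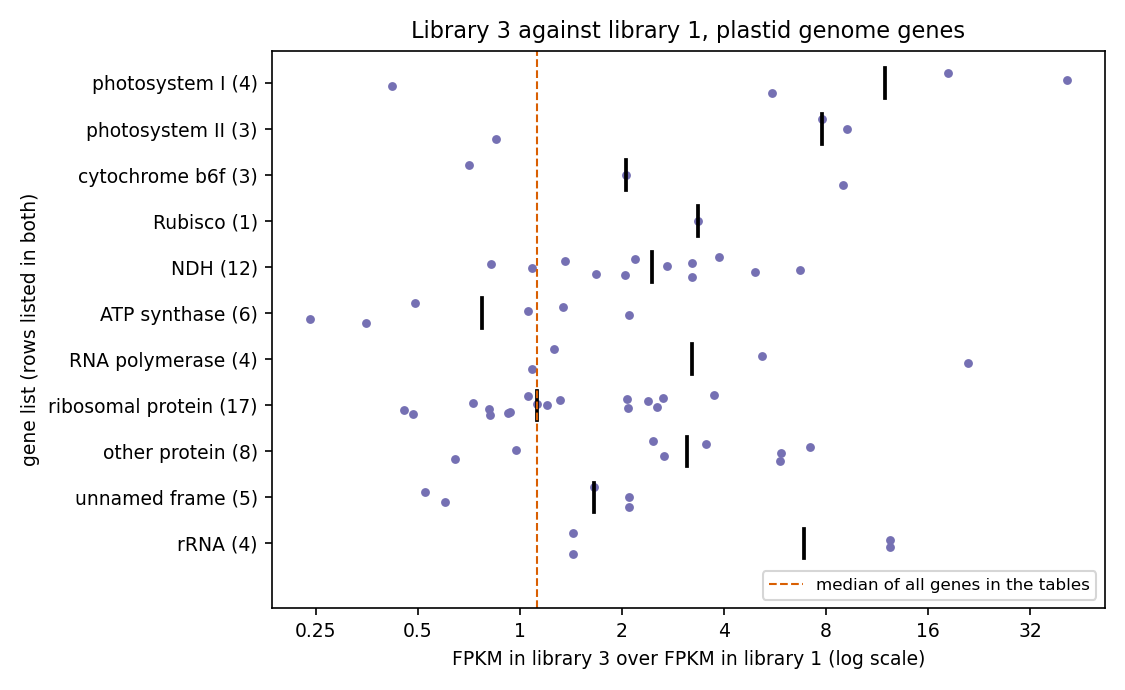
Ratio of FPKM in library 3 to library 1 (log scale) for the 67 plastid rows listed in both, by gene list; points are rows, black bars are list medians and the dashed line is the median of all genes at 1.12. The photosystem medians lie at 11.9 (4 rows) and 7.77 (3 rows), the ribosomal protein median at 1.13. Most of these photosystem rows had low values in library 1.

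The genes with the widest range between libraries, among those listed in all 3, were psaA (41.1-fold), rpoB (21.0-fold) and psaB (18.3-fold), each lowest in library 1 and highest in library 3. In library 1 they had 0.0180, 0.178 and 0.0793 FPKM, so these ranges rest on low values. The narrowest were clpP (1.09-fold) and rpl16 (1.20-fold). The median range was 2.56-fold for the 64 plastid rows listed in all libraries, against 2.55-fold for 93 mitochondrial rows and 1.93-fold for all 40925 such rows. Across the 79 plastid rows, Spearman's rho was highest for libraries 1 and 2 (0.888), lower for libraries 2 and 3 (0.821) and lowest for libraries 1 and 3 (0.755). Across all rows it was between 0.925 and 0.940. These describe genes that share libraries and are no test.

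Nuclear genes of plastid function and 3 genes of organelle RNA polymerases, taken by symbol from the RefSeq gene table, were set beside the plastid genes. Tobacco carries 2 parental genomes, and copies with no such symbol were not included. The 7 nuclear genes of plastid ribosomal proteins that carry a CL name each had a row in every library, with means between 1.37 and 12.0 FPKM and a median of 6.77 FPKM. CL27 had 15.2, 10.4 and 10.4 FPKM and CL4 had 3.31, 3.12 and 3.40 FPKM in libraries 1, 2 and 3. The 3 genes named for phage-type RNA polymerases of the organelles were also listed in all libraries. Which of them act in plastids and which in mitochondria was not examined here. rpoT1-tom had 2.30, 4.89 and 4.98 FPKM, rpoT2-tom had 1.65, 3.31 and 5.14 FPKM, and rpoT3-tom had 0.914, 0.853 and 2.31 FPKM.

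Nuclear genes of photosystem II were low. Of 9 such genes matched, among them 2 named PsbO and 2 PsbQ for the water-splitting side, 8 were listed in at least 1 library and all had means under 1 FPKM, the highest at 0.808 FPKM. The 4 matched antenna genes had means between 0.0484 and 0.934 FPKM. The petC1 gene of the Rieske protein of cytochrome b6f had 0.318, 0.911 and 0.0982 FPKM, and petC2 was not listed. Of the nuclear ATP synthase genes, atpD had 7.35, 1.98 and 10.8 FPKM, and atpC was listed in library 2 alone, at 0.190 FPKM. CHLI, for a subunit of the enzyme that puts magnesium into chlorophyll precursors, had 15.9, 15.7 and 6.54 FPKM, highest of all the matched nuclear genes by mean.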

How the data were processed

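RNA-seq was made by the authors from 3 libraries of two-celled proembryos. Reads were trimmed of adapters and low quality, aligned to Ntab-TN90 and quantified with RSEM. The paper names Bowtie 2 for mapping and the submitters' processing notes name TopHat2; versions are not given in the sources used here. The authors deposited FPKM per gene, 1 table per library, with only rows above 0. Mapping to nuclear and organelle sequence together means that reads from plastid DNA copies in the nucleus, or from the 2 repeat copies, can be divided between rows; this was not tested.

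Rows were joined by their identifier, unlisted values were set to 0 FPKM and loci were converted to count from 1. The 33 rows that share a locus carry its joint position. All 79 plastid rows were matched to the RefSeq gene table (assembly K326), and 47 had identical coordinates there; gene lengths, order, repeat pairs and biotypes came from it. Relative depth was the mode of the log2 ratio of genes under 0.3 FPKM in both libraries, checked on simulated fragments of known depth. The rule for named genes was every row listed in all libraries, the highest and lowest of each list, both repeat copies, list members with no row, the 10 highest rows and the 3 widest ranges. Genes that the rule gives but the text does not print were given by range or count, and 2 are not reported here by name. Transcription units and the length limit were chosen after the values were seen. The members and lists were chosen with earlier results of these data known. Alternatives were other detection limits, pseudocounts of 1 and 0.1, TPM, gene length weighting, merged repeat copies and leaving out each library. Python 3.11.15, numpy 2.4.6, pandas 2.3.3, scipy 1.17.1 and matplotlib 3.10.9 were used. No DNA or protein sequence is printed, since no sequence table was used here.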

Additional observations from a re-analysis of the deposited data

How the results depend on the processing

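Leaving out 1 replicate at a time, the number of plastid genes listed ranged from 71 to 79, their share of summed FPKM from 0.0531% to 0.0660%, and their median level from 2.60 to 2.92 FPKM. The ratio of the highest to the lowest library sum, 1.38, ranged from 1.08 (without library 3) to 1.38. The share of the plastid sum held by the 5 highest rows, 32.7%, ranged from 32.7% to 35.3%, and plastid over mitochondrial sums, 0.363, from 0.340 to 0.375. The number of rows listed, 79, was 64 when all libraries were asked for, and 49 rows averaged 1 FPKM or more; it was 70 with repeat copies counted once by position, added after seeing the data, and 74 with each gene name counted once. The median level, 2.41 FPKM, was 5.52 FPKM among rows listed in all libraries and 1.55 FPKM through log2(FPKM + 1). Weighted by gene length, the ratio of library sums was 1.57 and the share of the 5 highest was 49.6%. With rows of the same name summed the share was 37.1%. Without the 4 rRNA rows, a choice made after seeing the data, the ratio was 1.15 and the share was 36.2%. The ratio of library sums was 1.52 with TPM and 1.45 without the gene of the highest mean. This ratio has no value per library to set these shifts against. The other alternatives moved the plastid share, the median level and plastid over mitochondrial sums by less than the spread between libraries. What underlies these shifts was not tested, beyond what leaving rows out does by construction. The plastid share weighted by gene length was not run, since nuclear gene spans hold introns. No paired analysis was possible because only a single condition was sampled. The depth is unknown in reads, so whether an unlisted gene was missed for want of depth was not tested.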
